A study of Arabidopsis thaliana with 27 samples.

Results

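TPS11 and TPS24 are 2 terpene synthase genes that are expressed in Arabidopsis thaliana flowers. Each was measured by 1 probe set, found through the gene list of the array platform, out of 22810 probe sets on the array. The locus AT5G44630 on chromosome 5 is TPS11 and is measured by probe set 249005_at, and the locus AT3G25810 on chromosome 3 is TPS24 and is measured by 257637_at. The platform pairing and RefSeq (TAIR10.1) list both by locus alone, so the TPS numbers were taken from a list of the terpene synthase family. RefSeq gives the symbol TPS11 to another gene, AT2G18700, a trehalose phosphatase/synthase, and that locus had 0 probe sets paired with it alone and is not analysed here.

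Terpene synthases turn prenyl diphosphates into volatile terpenes. Sesquiterpenes are made from farnesyl diphosphate of the cytosolic mevalonate pathway, and monoterpenes from geranyl diphosphate of the plastidial methylerythritol phosphate (MEP) pathway. TPS11 is a sesquiterpene synthase of the flower, with (+)-alpha-barbatene among its products, and TPS24 is a monoterpene synthase with several products, myrcene and ocimene among them. Jasmonic acid is needed for the last steps of stamen development, and the opr3 mutant lacks the reductase that converts 12-oxophytodienoic acid (OPDA) on the way to it, which leaves the mutant male sterile.

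The study set jasmonate against its precursor in stamens of the opr3 mutant. RNA of stamens was hybridised to ATH1 arrays, 27 samples in 10 groups. In 4 groups, opr3 flower buds at stage 12 had received 0.03% methyl jasmonate, titled JA, and the stamens were taken 0.5, 2, 8 or 22 h later. In another 4 groups the buds had received 0.03% OPDA and the stamens were taken at the same times. The 9th group was untreated opr3 and the 10th, 1 array, was untreated stamens of Ws at stage 12, the wild-type background. All plants grew on soil under continuous light. No array is labelled as a mock treatment, and in a comparison with untreated stamens the agent cannot be told apart from the handling and the hours that had passed. JA over OPDA at one time is the comparison without that difference in hours.

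Groups held 3 arrays, except JA at 0.5 h and OPDA at 8 h with 2 and Ws with 1. JA at 0.5 h was deposited as 3 arrays, but its first and second replicates shared 100% of their probe set values (up to 0.943% for other pairs of arrays) and were counted as 1 sample. Replicate 3 of JA at 2 h carries the title opr2 and was kept in its group. The labels do not say whether replicates are separate plants, and the p-values here cover only the spread among the samples at hand, which may be technical. Precision is limited by the number of arrays, with a median half-width of 0.37 for the 95% interval of a log2 change in JA over OPDA at 22 h. In whole stamens, fewer cells of a type and less RNA per cell cannot be told apart.

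Values below are MAS5 signals, the linear intensity of a probe set on an array that the authors scaled to the same mean level. Changes are differences of log2(signal + 16) from 1 limma fit to 25 opr3 arrays, and a probe set was called when its Benjamini-Hochberg adjusted p over the 14028 probe sets tested was under 0.05. A probe set was tested if its signal reached 50 on at least 2 of those arrays. TPS11 reached 50 on all 25 arrays. TPS24 reached it on 3 arrays, those of JA at 22 h, so it entered the test only through the group in which it was high and had to differ there.

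TPS11 had a signal over 50 on every array and was higher late after JA. Its signal was 302.6, 217.3 and 140.6 on the 3 untreated arrays. After JA it was 313.5 and 253 at 0.5 h, 464.3, 305.1 and 326.7 at 2 h, 690.3, 315.8 and 800.2 at 8 h, and 424.8, 519.5 and 729.3 at 22 h. The JA arrays overlapped the untreated ones at 0.5 h and lay above all of them from 2 h on, although the lowest arrays at 2 h and at 8 h were only just above the highest untreated array.

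After OPDA no TPS11 group stood apart from the untreated arrays. TPS11 signal after OPDA was 377.8, 280.2 and 296.1 at 0.5 h, 304, 220.2 and 190.6 at 2 h, 258.2 and 295.1 at 8 h, and 220, 161.9 and 331.7 at 22 h. All 4 OPDA groups overlapped the untreated arrays.

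TPS24 was high in 1 opr3 group, the latest after JA. On the untreated arrays its signal was 17.3, 9.1 and 17.7. After JA it was 15.6 and 11.7 at 0.5 h, 1.2, 20.7 and 8.8 at 2 h, 12.7, 17.4 and 29.5 at 8 h, and 74.8, 247.8 and 337.3 at 22 h. The 22 h arrays alone stood apart, and the lowest of them was well above every other opr3 array.

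After OPDA the TPS24 signal was 19.3, 4.8 and 6.3 at 0.5 h, 20.8, 4.4 and 4.7 at 2 h, 15 and 2.7 at 8 h, and 8.6, 10.5 and 11.3 at 22 h. Over the 22 arrays other than JA at 22 h and Ws the signal ran between 1.2 and 29.5. No detection calls were used here, so no order is read among those arrays.

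**Figure D1:**
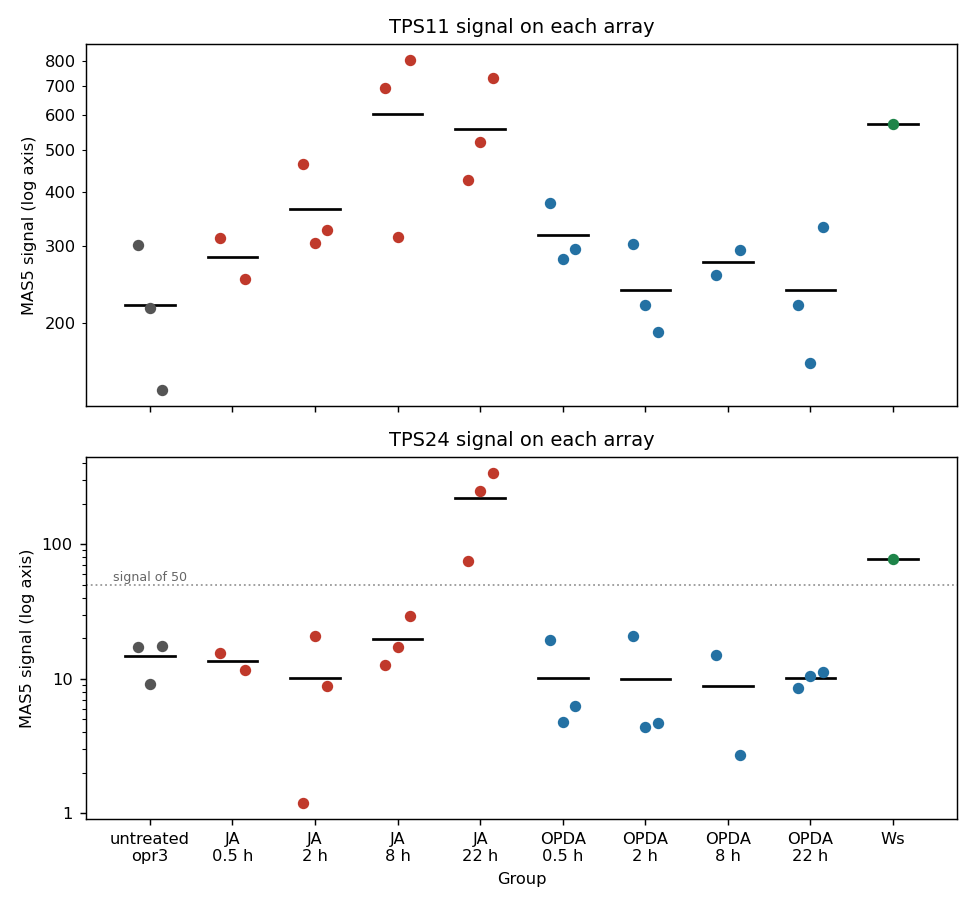
MAS5 signal of TPS11 and of TPS24 on each array (log axis) for untreated opr3, JA and OPDA groups in order of hours after treatment, and Ws. Points are arrays, black lines are group means and the dotted line marks a signal of 50. TPS24 is above 50 on the 3 JA 22 h arrays and the Ws array, and TPS11 is highest in JA at 8 and 22 h and in Ws.

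The first comparison was JA over untreated, which asks when each gene responded after JA. At 0.5 h 0 of the 2 genes were called, against 0.114% of all tested probe sets, and at 2 h again 0 of 2, against 2.22%. TPS11 averaged 365 ± 86.4 at JA 2 h and 220.2 ± 81.0 in untreated stamens (SD, n = 3 each). The groups did not overlap at 2 h, but the log2 change of 0.73 had an adjusted p of 0.40 (limma). At 0.5 h the log2 change of TPS11 was 0.39, with a 95% interval of -0.32 to 1.11.

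At 8 h 1 of the 2 genes, TPS11, was higher after JA, and 10.0% of all tested probe sets were called. TPS11 averaged 602 ± 254 at JA 8 h and 220.2 ± 81.0 untreated (SD, n = 3 each), a log2 change of 1.35 with a standard error of 0.31 and an adjusted p of 0.0056 (limma). The call was lost in a limma fit of these 2 groups alone, which had an adjusted p of 0.088. Between arrays scanned on the same day, the change was 0.28 for replicate 2 of JA at 8 h and 2.38 for replicate 3. TPS24 had a log2 change of 0.21 at 8 h, with a 95% interval of -0.60 to 1.02.

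At 22 h both genes were higher after JA, at a time when 39.6% of all tested probe sets were called. TPS11 averaged 558 ± 156 at JA 22 h and 220.2 ± 81.0 untreated (SD, n = 3 each), 2.53 times as high, with a log2 change of 1.31 (95% interval 0.67 to 1.94) and a limma adjusted p of 0.0019. TPS24 averaged 220.0 ± 133 at JA 22 h and 14.7 ± 4.85 untreated (SD, n = 3 each), and its log2 change was 2.74 (95% interval 1.93 to 3.56) with an adjusted p of 1.3e-05. For both genes all 3 JA arrays lay above all 3 untreated arrays. The share of all tested probe sets with such a separation was not computed, so nothing is read from it. For TPS24 the separation was fixed by the filter. Between arrays scanned on the same day, JA at 22 h minus untreated was 0.97 for replicate 2 and 2.25 for replicate 3 in TPS11, and 3.19 and 3.39 in TPS24, while replicate 1 shared its scan day with no untreated array. The median log2 change of all tested probe sets in this comparison was -0.21, and relative to it TPS11 changed by 1.51 and TPS24 by 2.95. The size for TPS24 depends on the value added before the logarithm, since its untreated signals were low: the log2 change was 3.62 with 1 added and 1.72 with 64 added.

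OPDA over untreated was the matching comparison for the precursor. Neither gene was called at any time: 0 of 2 at 0.5 h against 0.00713% of tested probe sets, 0 of 2 at 2 h against 0.0214%, 0 of 2 at 8 h against 0%, and 0 of 2 at 22 h against 11.6%. At 8 h 0 probe sets were called by limma and 391 had an unadjusted p under 0.05. At 22 h TPS11 averaged 238 ± 86.3 after OPDA and 220.2 ± 81.0 untreated (SD, n = 3 each), with a log2 change of 0.11 and a 95% interval of -0.53 to 0.75. TPS24 averaged 10.1 ± 1.39 after OPDA and 14.7 ± 4.85 untreated at 22 h, with a log2 change of -0.22 and an interval of -1.04 to 0.59. In the fit, the largest of the TPS11 changes after OPDA was 0.55 at 0.5 h, with an interval of -0.090 to 1.19. On shared scan days, the log2 change of TPS11 was -0.21 at 2 h and -0.62 at 22 h for replicate 2. For replicate 3 it was 0.99 at 0.5 h, 0.40 at 2 h, 0.99 at 8 h and 1.15 at 22 h. The replicate 3 values, here and after JA, rest on 1 untreated array, the lowest of the 3 in TPS11 signal (140.6).

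**Figure D2:**
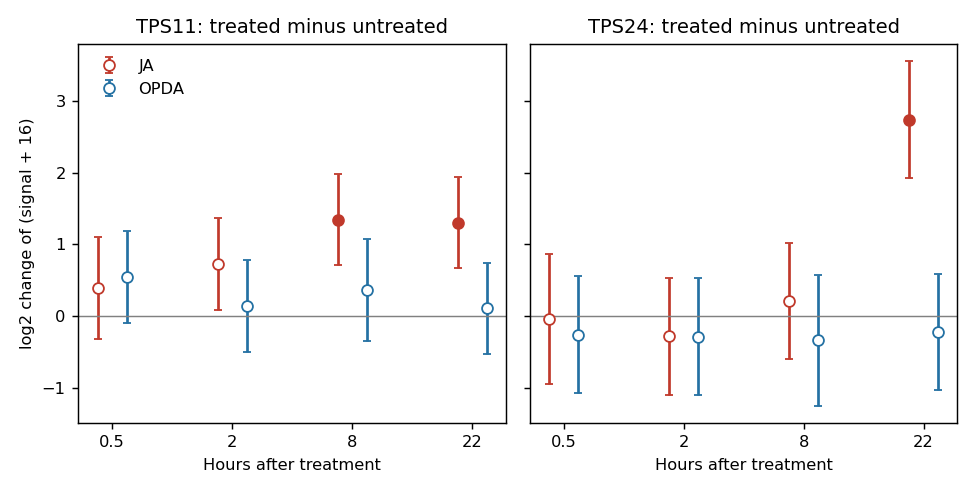
Log2 change of (signal + 16) of treated minus untreated opr3 stamens for JA and OPDA at each time (hours after treatment), with 95% intervals from the limma fit. Filled points had an adjusted p under 0.05. TPS11 passes after JA at 8 h (1.35) and 22 h (1.31), TPS24 after JA at 22 h (2.74), and no OPDA point is filled.

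JA over OPDA at the same time compares the hormone with its precursor directly. It uses the same JA and OPDA arrays as the comparisons above and is not independent of them. At 0.5 h 0 of the 2 genes were called, against 0.0713% of tested probe sets, at 2 h 0 of 2 against 1.90%, and at 8 h 0 of 2 against 7.81%. TPS11 averaged 602 ± 254 at JA 8 h (SD, n = 3) and 277 ± 26.1 at OPDA 8 h (SD, n = 2). Every JA array was above both OPDA arrays at 8 h, but the log2 change of 0.98 (95% interval 0.27 to 1.69) had an adjusted p of 0.086 in limma. With each of the 25 arrays left out in turn, the change ran from 0.73 to 1.38 and the limma adjusted p from 0.011 to 0.40. It stayed uncalled in 24 of the 25 fits. The 1 call came without replicate 2 of JA at 8 h, the array with the lowest TPS11 signal in that group, so nothing is read from it.

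At 22 h both genes were higher after JA than after OPDA, where 18.7% of tested probe sets were called. TPS11 averaged 558 ± 156 at JA 22 h and 238 ± 86.3 at OPDA 22 h (SD, n = 3 each), a log2 change of 1.20 (95% interval 0.56 to 1.84) with a limma adjusted p of 0.0074. TPS24 averaged 220.0 ± 133 at JA 22 h and 10.1 ± 1.39 at OPDA 22 h (SD, n = 3 each), a log2 change of 2.96 (95% interval 2.15 to 3.78) with an adjusted p of 7.4e-06. With OPDA signals this low, that size too depends on the value added before the logarithm: it was 4.07 with 1 added and 1.80 with 64 added. Arrays of the same replicate number were scanned on the same day at this time. Within the 3 scan days, JA minus OPDA was 0.90, 1.59 and 1.10 on the log2 scale for TPS11 and 1.88, 3.32 and 3.69 for TPS24, so the direction was the same on each day. For TPS24, tested only through its JA 22 h arrays, a higher JA group was fixed by the filter.

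**Figure D3:**
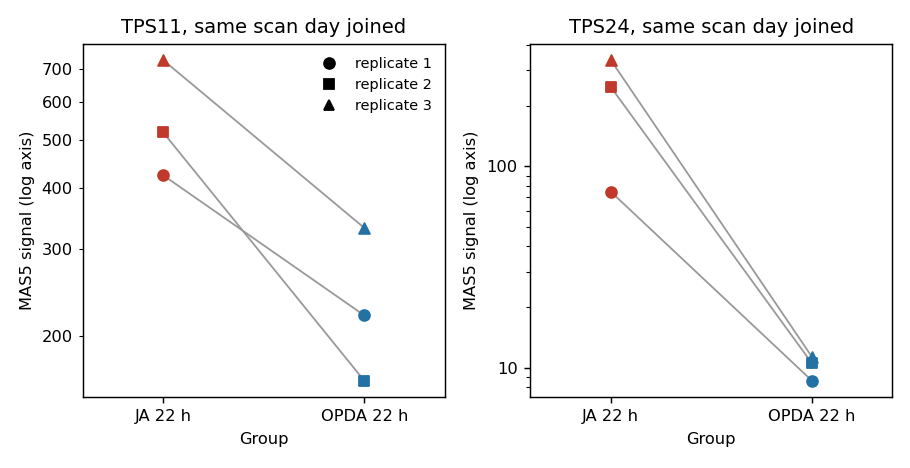
MAS5 signal (log axis) of TPS11 and TPS24 at 22 h after JA and after OPDA, with a line joining the arrays scanned on the same day and a symbol for each replicate number. JA is above OPDA in all 3 pairs for both genes, and replicate 1 has the lowest JA signal of each gene (424.8 for TPS11 and 74.8 for TPS24).

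Whether the gap between JA and OPDA was wider at 22 h than before was tested in the same fit, as JA over OPDA at 22 h minus the mean of that change at 0.5, 2 and 8 h. TPS24 was called, 1 of the 2 genes against 10.4% of tested probe sets, with a difference of 2.71 on the log2 scale and an adjusted p of 0.00030. As TPS24 was tested only because its JA 22 h arrays reached 50, a wider gap at 22 h was fixed by the filter, and the value is a description. For TPS11 the difference was 0.73 (95% interval -0.026 to 1.48, adjusted p of 0.27). This comparison was added after the data were seen.

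Within the JA series, 22 h was set against 8 h, where 1 of the 2 genes was called against 20.3% of tested probe sets. TPS24 averaged 220.0 ± 133 at JA 22 h and 19.9 ± 8.67 at JA 8 h (SD, n = 3 each), a log2 change of 2.53 with a limma adjusted p of 7.7e-05. TPS11 averaged 558 ± 156 at JA 22 h and 602 ± 254 at JA 8 h, with a log2 change of -0.040 and an interval of -0.68 to 0.60. TPS11 was thus already called at 8 h. TPS24 was called at 22 h alone, but it was tested only through those arrays, so no timing is read from its calls. Within the OPDA series 0 of 2 were called at 22 h over 8 h, against 6.27% of tested probe sets, with log2 changes of -0.26 for TPS11 and 0.12 for TPS24.

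On the single Ws array, which was outside the fit and carries no test, the TPS11 signal was 571.7. This was above every array of untreated opr3 and of the 4 OPDA groups, and within the range of JA at 8 h and of JA at 22 h. The TPS24 signal on the Ws array was 77.2, above every opr3 array except 2 of the 3 at JA 22 h. On the log2 scale Ws minus the untreated mean was 1.37 for TPS11 and 1.62 for TPS24, and Ws minus the JA 22 h mean was 0.069 for TPS11 and -1.13 for TPS24. In summed signal of the cell markers given below, Ws was within the JA 22 h range for pollen (5227.3) and nectary (62.6). It was above that range for tapetum (834.6, against 4.2 to 13.8) and green tissue (1073.2, against 696.4 to 783.3).

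Ordered by mean signal, TPS11 was highest in JA at 8 h (602), then Ws (571.7, 1 array), JA at 22 h (558), JA at 2 h (365), OPDA at 0.5 h (318), JA at 0.5 h (283), OPDA at 8 h (277), OPDA at 2 h (238), OPDA at 22 h (238) and untreated (220.2). Each group in that order overlapped the next one. For TPS24 JA at 22 h came first and Ws second, and the other groups lay below both, each overlapping the next in order.

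Of a list of 31 terpene synthase loci, 17 were paired with a probe set of their own, and 3 of those were tested: TPS11, TPS24 and TPS15. At 22 h 3 of 3 were called higher in JA over untreated, where 39.6% of all tested probe sets were called, 3 of 3 were called higher in JA over OPDA, against 18.7%, and 0 of 3 were called in OPDA over untreated, against 11.6%. TPS24 and TPS15 were tested only through their signals at JA 22 h and had to be higher there, so nothing is read from the counts of 3. The median log2 changes of the 3 were 1.65 over untreated and 1.59 over OPDA, both the values of TPS15. Those of all tested probe sets were -0.21 and -0.075. As TPS15 passed the filter through JA 22 h alone, the medians of the 3 are a description. TPS15 (AT3G29190), a further member of the family, had signals of 57.3, 40.4 and 58.4 at JA 22 h. It had 2.6, 3 and 15.7 at OPDA 22 h and between 5 and 6.3 on the untreated arrays. The 2 arrays of OPDA at 8 h had 11.7 and 40.5, so TPS15 at JA 22 h did not lie above every OPDA array. Its log2 change was 1.65 over untreated (adjusted p of 0.00022) and 1.59 over OPDA (adjusted p of 0.00055). Of its JA 22 h arrays 2 reached 50, and no other opr3 array did.

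The other 14 terpene synthases were not tested, and the highest signal of any of them on any array was 46.8. Among them, TPS23 (AT3G25830), a cineole synthase that lies near TPS24 on the chromosome, had a signal of 1.5 to 8.9 at JA 22 h and 0.8 to 10.6 in untreated stamens, and these groups overlapped. The gene just before TPS24, AT3G25805, had 46.5 to 89.5 at JA 22 h and 55.5 to 72.8 in untreated stamens, also with overlap. CYP706A3, a cytochrome P450 gene next to TPS11, had no probe set paired with it alone and is not analysed here.

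**Figure D4:**
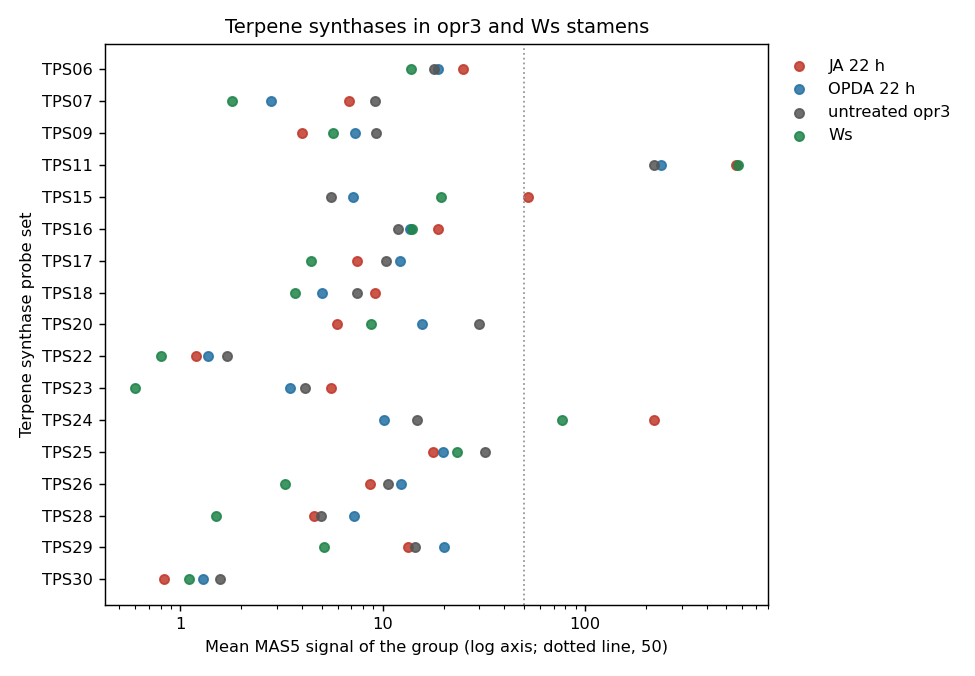
Mean MAS5 signal (log axis) of the 17 terpene synthase probe sets in JA at 22 h, OPDA at 22 h, untreated opr3 and Ws (1 array). Groups are to be compared along a row and not between rows, since probe sets differ in response. TPS11, TPS24 and TPS15 are the 3 with a group mean above 50 (dotted line), and in each of them JA at 22 h is above OPDA and untreated.

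The precursor pathways were thinly covered. Of 9 loci of the cytosolic mevalonate pathway 2 were paired and tested, and at 22 h in JA over untreated 1 was called lower and 0 higher, where 39.6% of all tested probe sets were called. A share of 1 in 2 is near that background. That gene was MVD2 (AT3G54250), a mevalonate diphosphate decarboxylase, which averaged 199 ± 51.3 at JA 22 h and 329 ± 44.5 in untreated stamens (SD, n = 3 each), a log2 change of -0.70 with an adjusted p of 0.00067. In JA over OPDA at 22 h its log2 change was -0.35 with an adjusted p of 0.11, and those groups overlapped. The other, PMK, a phosphomevalonate kinase, had a log2 change of -0.22 and was not called. Of 7 loci of the MEP pathway 0 were paired, and of 10 isomerases and prenyl diphosphate synthases 1 was paired and not tested.

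Of 5 cytochrome P450 genes that oxidise linalool, a floral monoterpene alcohol, 1 was paired. CYP71B31 (AT3G53300) had signals of 45, 46.1 and 65.5 at JA 22 h, against 3.1, 14.7 and 4.1 at OPDA 22 h and 0.7 to 8.9 in untreated stamens. It reached 50 on 1 array and was not tested. All 3 JA 22 h arrays were above every other opr3 array, and the Ws array had a signal of 20.4. The share of all probe sets with such a separation was not computed, so nothing is read from it.

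Of 7 regulators that act between jasmonate and floral genes, 2 were paired and 1 was tested, MYC3, a transcription factor of the jasmonate pathway. It was not called at 22 h in JA over untreated (log2 change -0.11) or in JA over OPDA (log2 change -0.18). Because of the shared symbol TPS11, 11 trehalose-6-phosphate synthases and 11 phosphatases and trehalase were also listed, and 0 of them were paired. A list of 6 genes of the SnRK1 kinase and its sugar starvation markers had 1 paired gene, SEN5 (AT3G15450). At 22 h it was lower after JA than untreated (log2 change -0.88, limma adjusted p of 0.0058), where 39.6% of all tested probe sets were called. It was also lower than after OPDA (log2 change -1.16, limma adjusted p of 0.0011), where 18.7% were called.

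Markers of other cells of the flower moved at the same time as the 2 genes. The nectaries lie at the base of the stamens, and of 3 nectary markers 1 was paired, SWEET9, the sugar exporter of nectaries. Its signal was 55.1, 208.9 and 390.5 at JA 22 h, against 47.7, 44.6 and 18.7 at OPDA 22 h and 19.4 to 25.8 in untreated stamens, and it was 62.6 on the Ws array. All 3 JA arrays were above all OPDA and untreated arrays, with a log2 change of 2.25 over untreated (adjusted p of 0.00010) and 1.87 over OPDA (adjusted p of 0.0012). In opr3 it reached 50 on the JA 22 h arrays alone and was tested only through them, so a difference there was fixed by the filter. Among the JA 22 h arrays, replicate 1 had the lowest and replicate 3 the highest signal of SWEET9, of TPS24 and of TPS11. CYP71B31, not a nectary marker, had this order too (45, 46.1 and 65.5), and TPS15 did not (57.3, 40.4 and 58.4). The share of all probe sets with this order was not computed, so nothing is read from it. The part of nectary tissue in the 2 results was not tested.

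Of 6 pollen markers 5 were paired and tested. At 22 h after JA 4 were higher than untreated and VEX1 was lower, where 39.6% of all tested probe sets were called. After OPDA at 22 h 4 were higher than untreated, where 11.6% of all tested probe sets and neither TPS11 nor TPS24 were called. In JA over OPDA at 22 h 1 of the 5 was called lower and 0 higher, against 18.7% of all tested probe sets. The summed signal of the 5 was 4838.7 to 7203.8 at JA 22 h, 5134.5 to 7910 at OPDA 22 h and 2711.4 to 3935.2 untreated. That sum joins markers that differed in opposite directions. VEX1 averaged 933 ± 203 at JA 22 h and 2833 ± 456 at OPDA 22 h (SD, n = 3 each), while the other pollen means were higher at JA 22 h. PLIM2a, an actin-binding protein of pollen, averaged 3319.7 ± 1137 at JA 22 h, 2110.5 ± 1214 at OPDA 22 h and 443 ± 298 untreated (SD, n = 3 each). The log2 changes at JA 22 h over untreated were 2.79 for ANX2 and 1.97 for ANX1, receptor kinases of the pollen tube, and -1.30 for VEX1.

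Of 4 tapetum markers 2 were paired, with a summed signal of 4.2 to 13.8 at JA 22 h, 11 to 60.3 at OPDA 22 h and 157 to 656.3 untreated. The 1 tested, ATA27, was lower after JA (log2 change -4.28) and after OPDA (-3.68). Of 5 green tissue markers 2 were paired and both were lower at 22 h after JA than untreated. At 22 h 39.6% of all tested probe sets were called in JA over untreated and 11.6% in OPDA over untreated. The summed green tissue signal was 696.4 to 783.3 at JA 22 h, 1229.8 to 1335.1 at OPDA 22 h and 1333.3 to 1424.8 untreated. In JA over untreated, RCA, rubisco activase, had a log2 change of -0.80, and LHCB4.2, a light-harvesting protein, had -1.43. No marker was listed at 0. At 8 h, when TPS11 was called after JA, some of these markers moved after JA as well. ANX1 was higher than untreated (log2 change 1.299, adjusted p of 0.014) and than OPDA (1.32, adjusted p of 0.031), and PLIM2a was higher than OPDA (2.20, adjusted p of 0.048). ATA27 was lower after JA than untreated (-2.33, adjusted p of 0.033) and than OPDA (-2.51, adjusted p of 0.049). In counts, 1 of 5 pollen markers and 1 of 1 tapetum marker were called in JA over untreated at 8 h, against 10.0% of all tested probe sets, 2 of 5 and 1 of 1 in JA over OPDA, against 7.81%, and 0 in OPDA over untreated, against 0%. The summed pollen signal was 3612.5 to 6899.8 at JA 8 h, 2796.5 to 3242.9 at OPDA 8 h and 2711.4 to 3935.2 untreated, and that of the tapetum markers was 22.6 to 346.7 at JA 8 h, 236.5 to 805.8 at OPDA 8 h and 157 to 656.3 untreated. The 3 stamen and petal identity genes and the 4 carpel and ovule genes had 0 paired probe sets, so the labelled tissue was checked through pollen and tapetum markers alone. The part of these cells in the results for TPS11 and TPS24 was not tested.

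The genes most alike to each of the 2 in pattern were found by Pearson's r over the 9 opr3 group means of log2(signal + 16), among 7545 tested probe sets paired with 1 gene. The groups share a plant line and a scaling, and r is given as a description. For TPS24 the 5 highest were UGT85A3, a UDP-glucosyl transferase (r = 0.992), AT4G25390 (0.991), CML23, a calmodulin-like protein (0.990), NGA2, a transcription factor of the NGATHA family (0.989), and AT1G21010 (0.989). In all 5 the pattern rests on the 1 group of JA at 22 h. The 5 were chosen for group means that follow TPS24, so a high JA 22 h mean was built in and nothing is read from it. AT1G21010 averaged 1003 ± 139 at JA 22 h, against 29.6 ± 7.63 at OPDA 22 h and 21.5 ± 4.60 untreated, and UGT85A3 averaged 496 ± 155, against 31.4 ± 9.37 and 32.2 ± 4.65 (SD, n = 3 each). On the Ws array the 5 had signals of 291.9, 148.6, 167.6, 86.9 and 385.9 in the same order. Each was below its JA 22 h mean and above its untreated mean, as was the case for TPS24. The share of all probe sets with this place of Ws was not computed, so the values are a description.

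For TPS11 the 5 highest were AT4G31615, listed in RefSeq as REM35 (r = 0.944), AT5G34930 (0.943), AT3G43430 (0.940), AT5G01850 (0.938) and AT1G78780 (0.936). Their changes were smaller than that of TPS11: at 22 h in JA over untreated the log2 changes were 0.63, 0.47, 0.999, 0.58 and 0.74 in that order. All but AT4G31615 were called, where 39.6% of all tested probe sets were. The 5 were chosen for group means that follow TPS11, so a rise was built in and nothing is read from these calls. AT3G43430 averaged 110 ± 5.98 at JA 22 h and 47.5 ± 8.37 untreated (SD, n = 3 each). Between TPS11 and TPS24 themselves r over the 9 group means was 0.637.

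**Figure D5:**
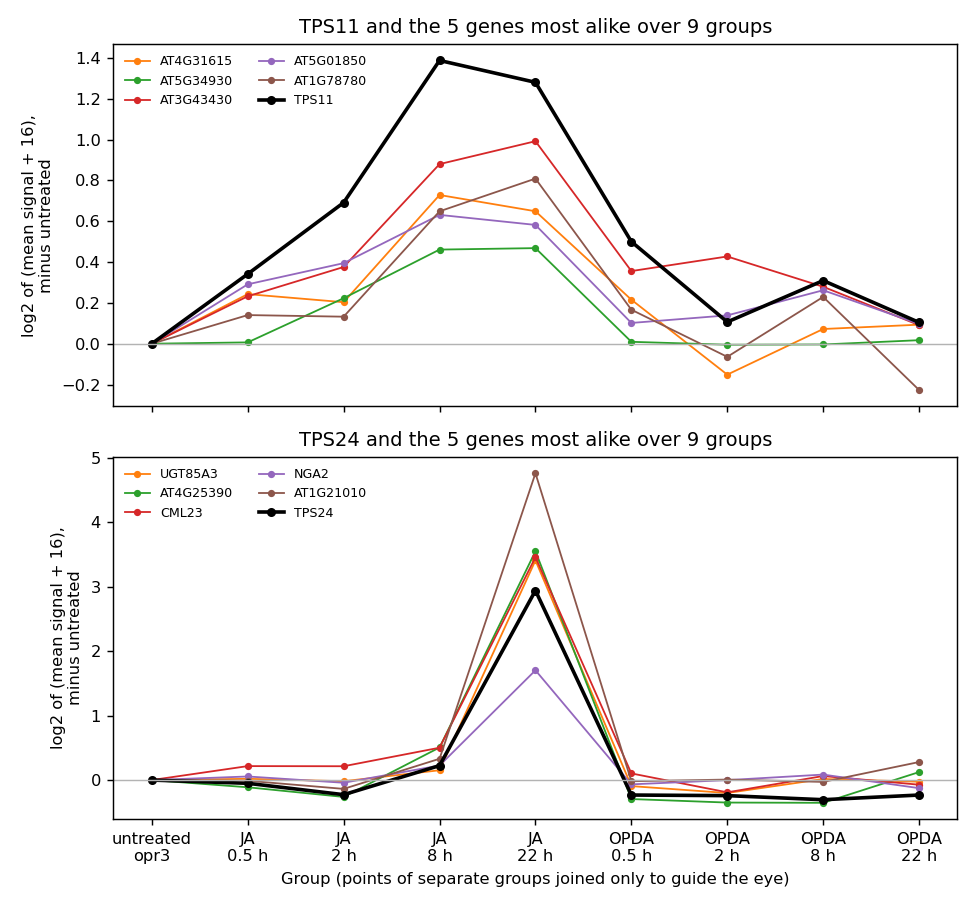
Log2 of (mean signal + 16) minus that of untreated opr3 for TPS11, TPS24 and the 5 genes most alike to each, over untreated, JA and OPDA groups in order of hours. Black is the terpene synthase gene, colours are the others, and lines only join groups. The TPS24 set has its one peak in JA at 22 h, while the TPS11 set is high in JA at both 8 h and 22 h.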

How the data were processed

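The authors deposited 1 table of MAS5 signal intensity per probe set, named as MAS5 in the submitters' processing notes with no version; per the labels each array was scaled to a target of 125. Detection calls and background settings are not given in the sources used here. The trimmed mean was 124.9 to 125 on all arrays, the median signal 47.5 to 56.9, and 48.7% to 53.3% of probe sets had at least 50. The arrays' processing records were used for scan day and chip lot alone, and 2 arrays (OPDA 8 h replicate 1 and Ws) had none here.

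The scale of analysis was log2(signal + 16). In total 14028 probe sets reaching 50 on 2 or more of 25 arrays were fitted as 9 group means in limma 3.58.1 under R 4.3.3 (lmFit, contrasts, eBayes with an intensity trend, 16 residual degrees of freedom). Tests were two-sided, with Benjamini-Hochberg adjustment within each comparison. The model was tested on simulated data. Ws stayed outside the fit. Alternatives were other pseudocounts, filters, scalings and variance models, blocks for replicate number, scan day and chip lot, the compared groups alone, the identical arrays kept apart, and each array left out. The platform table names 1 gene for 13513 probe sets, several for 503 and none for 8794, and RefSeq holds 13436 of the single genes. The text names the 2 genes, up to 4 called members of each list at 22 h, and the 5 genes most alike to each of the 2; paired genes near them on the chromosome, CYP71B31 and members that were not called are named besides. The members and lists were chosen with earlier results of these data known.

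Same-numbered arrays were checked for pairing by the correlation of their deviations from the group means, which ran from -0.18 to 0.52 over 37 pairs. Of 9 comparisons with 3 pairs, all pairs passed 0.1 in 3: JA over OPDA at 2 h and at 22 h, and JA at 22 h over 8 h. The main fit held no pairing, so the p-values in the results are unpaired for these 3 as well. With replicate number as a block, the calls of the 2 genes in these 3 were the same. Of 5 comparisons with 2 pairs, both passed 0.1 in 4, JA over OPDA at 8 h among them, but 2 pairs were too few to decide on pairing. At 22 h JA and OPDA arrays of one number also shared a scan day.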

Additional observations from a re-analysis of the deposited data

Results flagged for a closer look

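The gap between JA and OPDA for TPS24 differed between times: at 22 h it was wider than its mean at 0.5, 2 and 8 h by 2.71 on the log2 scale (limma, adjusted p of 0.00030), and all 3 JA arrays were above all 3 OPDA arrays at 22 h. This comparison was added after the data were seen, and TPS24 was tested only because its JA 22 h arrays reached 50, so the direction was fixed by the filter. The same test for TPS11 gave 0.73 with an adjusted p of 0.27.

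The Ws array entered no test, and both genes gave a signal there above the untreated opr3 arrays. TPS11 was at 571.7 on the Ws array, against 140.6 to 302.6 on the untreated opr3 arrays, and TPS24 was at 77.2, against 9.1 to 17.7. With 1 array, the spread within Ws is not known. Groups held at most 3 arrays, so no group was large enough for a check of single outlying arrays.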

How the results depend on the processing

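The 30 changes of the 2 genes were recomputed under 1093 alternatives, of which 1071 kept direction and side of the threshold, 19 reversed, 2 gained and 1 lost the call. TPS11 in JA over untreated at 8 h kept 1.35 but had an adjusted p of 0.088 in a limma fit of the compared groups alone, with fewer arrays to estimate the spread. TPS11 in JA over OPDA at 8 h became called with the replicate number as a block (1.11, adjusted p of 0.024) and without replicate 2 of JA at 8 h, with 0.73 to 1.38 over all left-out arrays. The replicate block changed no other call. None of the reversed values was called: TPS24 in JA over OPDA at 2 h was -0.17 with 1 added before the logarithm, TPS11 in JA at 22 h over 8 h 0.016 with 75th percentile scaling, and with scan day as a block TPS11 in OPDA over untreated at 2 h was -0.067 and TPS24 at 22 h 0.026. Leaving out arrays also turned TPS24 in JA over untreated at 0.5 h (-0.18 to 0.055), in JA over OPDA at 2 h (-0.27 to 0.28), in OPDA over untreated at 8 h (-0.70 to 0.027) and in OPDA at 22 h over 8 h (-0.25 to 0.48), and TPS11 in OPDA over untreated at 2 h (-0.13 to 0.39) and 22 h (-0.16 to 0.35) and in JA at 22 h over 8 h (-0.44 to 0.21). The cause of the reversals was not tested. With a mean signal of at least 100 as the filter TPS24 was not tested and has no value. The called changes at 22 h stayed called with any 1 array left out: JA over untreated was 1.04 to 1.55 for TPS11 and 2.35 to 3.33 for TPS24, and JA over OPDA 0.97 to 1.45 and 2.57 to 3.55 in the same order. TPS24 entered each of these fits only through its JA 22 h arrays, so nothing is read from its kept calls. Over all tested probe sets, the number called in OPDA over untreated at 22 h was 1628 and became 469 with the compared groups alone, 2791 with the replicate block, 2770 with the scan day block, and 213 to 2164 with 1 array left out (213 and 377 without untreated replicate 1 or 2, 290 without OPDA 22 h replicate 2). In JA over OPDA at 22 h it was 2624 and became 1601 with the compared groups alone.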
